A study of Homo sapiens with 6 samples.

Results

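The sites described here are the intervals in the top 1% by LOD score of the p-filtered list of HuR binding sites. The cells were HEK293, an established line from human embryonic kidney. The list held 373845 intervals, and 3739 of them had a LOD score at or above its 99th percentile of 23.02. LOD is the authors' score per interval, and its log base and scale were not given in the sources used here. The study used DO-RIP-seq, in which lysate is digested with micrococcal nuclease, RNA fragments are recovered with an antibody, and the fragments are sequenced. The labels list 3 HuR immunoprecipitations with the mouse antibody 3A2 and 3 negative control immunoprecipitations with normal mouse sera, all from unmodified HEK293 lysate as far as the labels say. The analysed files are 1 site list per HuR replicate and, for all 3 together, 2 combined lists, with and without the authors' p filter at 0.05. The lists of replicates 1, 2 and 3 held 186157, 405048 and 550681 sites. Separate values of the negative controls were not used here.

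HuR, the product of ELAVL1, is an RNA-binding protein that recognises U-rich and AU-rich stretches, mainly in introns and 3′ untranslated regions. It is known for stabilising the messenger RNAs it binds and for moving between nucleus and cytoplasm. A genome or annotation on hg19, the build of these coordinates, was not used here, so positions are given without genes, transcript regions or sequences.

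The lists gave no read counts, and depth per library is unknown. The labels' protocols say that digested lysates were pooled and then divided over the immunoprecipitations, so the spread between replicates may be technical. The score of the combined list chose the sites, and by its name that list combines all 3 replicates. Replicate scores at these sites are therefore descriptions and received no test, and with 3 replicates a two-sided exact sign-flip test cannot give p below 0.25. All intervals lie on a grid of 5 nt, coordinates are 1-based on hg19, and binomial intervals cover counting error only.

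The top 1% sites were wider than other p-filtered sites and narrower than the combined sites that held them. Their scores ran from 23.02 to 36.1 with a median of 24.5, against a median of 9.82 in the 370106 other p-filtered sites. Their median width was 70 nt, with 5% at or below 45 nt and 5% at or above 140 nt. The other p-filtered sites had a median width of 45 nt, with the same limits at 20 and 100 nt. In each 1% band from percentile 95 to 99 the median was also 70 nt. The combined sites that held top 1% sites had a median width of 135 nt, against 70 nt for the combined sites of the other p-filtered sites. A p-filtered interval covered a median of 56.3% of its combined site's bases at top 1% sites and 71.4% at the others.

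The share of sites in the top 1% differed by width. The most frequent width was 70 nt, with 456 sites, and 57.0% of the top 1% sites were 60 to 85 nt wide, against 21.1% of the others. Of p-filtered sites 15 to 20 nt wide, 0.0252% were in the top 1%. The share was 0.667% at 45 to 60 nt, 3.13% at 65 to 80 nt and 3.82% at 85 to 120 nt. It was 2.55% for the 1138 sites of 205 nt or more. Within the top 1%, the median score was 24.5 at 45 to 60 nt and 24.3 at 125 to 200 nt. The labels give 25 to 70 nt as the fragment length cut from the gel, and 1845 top 1% sites, or 49.3%, were wider than 70 nt, against 12.6% of the others.

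The same direction appeared in every replicate when its own list was ranked. Sites in the top 1% of the lists of replicates 1, 2 and 3 had median widths of 62.5, 90 and 80 nt, against 45, 55 and 50 nt for the other sites of each list. The difference was 27.5 ± 9.01 nt (SD, n = 3).

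**Figure D1:**
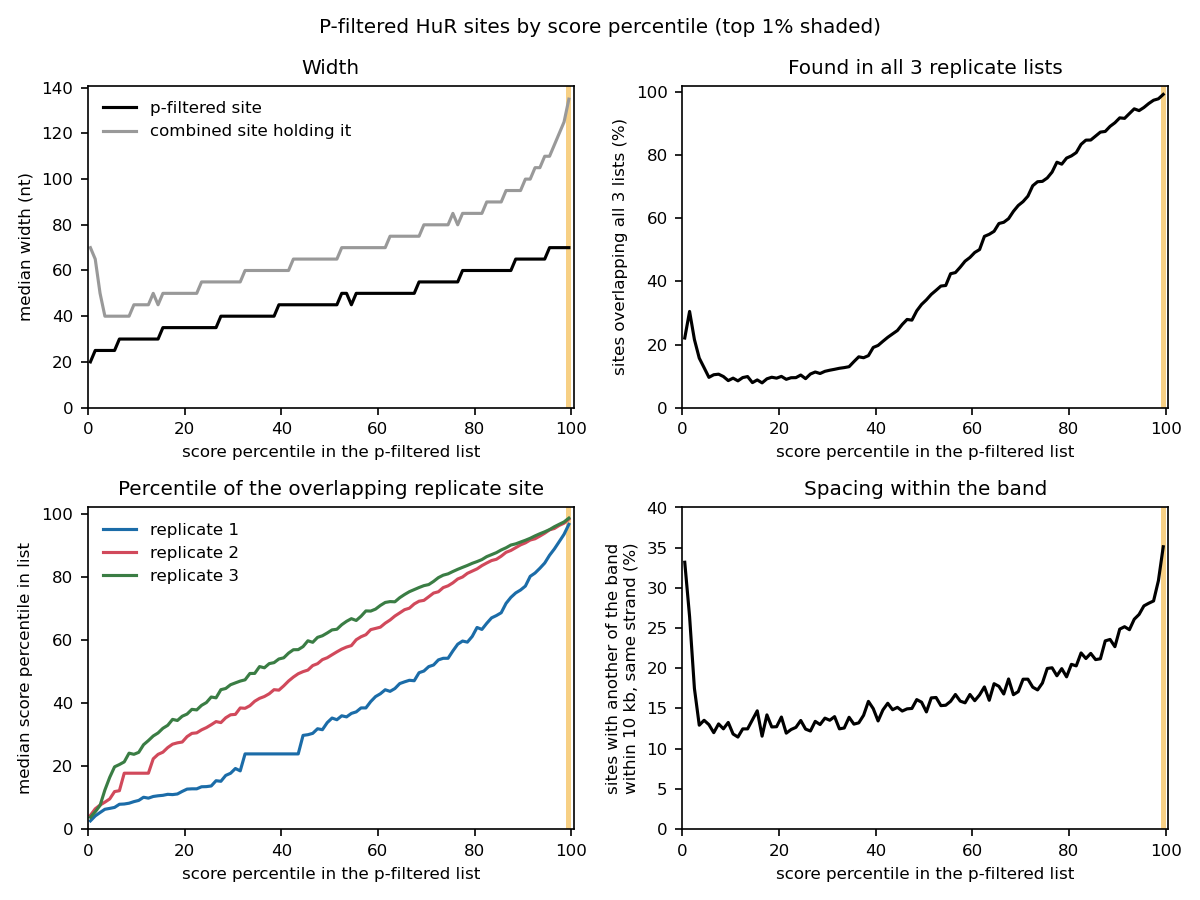
Each panel plots a property of p-filtered HuR sites against their score percentile in bands of 1%, with the top 1% shaded: median width in nt of the site and of its combined site, share found in all 3 replicate lists, median percentile of the overlapping site in each replicate list, and share with another site of the same band within 10 kb on the same strand. Width reaches 70 nt from percentile 95 upward, and the share in all 3 lists reaches 99.3% in the top band. The share with a near neighbour is 35.1% in the top band and 33.2% in the bottom band.

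Nearly every top 1% site touched a site in each replicate list by at least 1 nt. Of the 3739 sites, 3714 overlapped a same-strand site in all 3 replicate lists by at least 1 nt, or 99.3% (95% exact binomial interval 99.01 to 99.57), against 42.5% of all p-filtered sites. When at least 50% of each interval had to be shared, 65.7% of the top 1% sites were in all 3 lists. This share was not computed for the other p-filtered sites, so it cannot be read as particular to the top 1%. It also depends on width. The overlapping sites had median widths of 65, 120 and 105 nt in replicates 1, 2 and 3, against 70 nt for the top 1% sites. At 1 nt of overlap, the remaining 25 were absent from replicate 1, which had the shortest list, and present in replicates 2 and 3. These 25 were narrow, 15 to 45 nt wide with a median of 35 nt, against 70 nt for the 3714. Their scores had a median of 24.1, against 24.5. The median percentile of the 25 was 91.7 in replicate 2 and 94.6 in replicate 3, against 98.3 and 98.6 for the 3714. The share in all 3 lists was 22.1% in the bottom 1% of scores and 7.84% at percentiles 16 to 17, the lowest of the 100 bands. It was 34.2% at percentiles 50 to 51, 91.9% at 90 to 91 and 97.9% at 98 to 99.

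The replicate sites were strong within their own lists. The overlapping site had a median score of 9.54 in replicate 1, 8.50 in replicate 2 and 7.22 in replicate 3, which are the replicates' own scales. As percentiles of each list, over sites with a partner in it, the medians were 96.7, 98.3 and 98.6, on average 97.9 ± 1.07 (SD, n = 3). The other p-filtered sites with a partner had medians of 52.8, 61.7 and 63.3, on average 59.3 ± 5.64 (SD, n = 3). Top 1% sites stood 38.6 ± 4.58 points higher and were higher in each replicate. Of the other sites, 55.8%, 16.0% and 7.34% had no partner in replicates 1, 2 and 3. Replicate 1 had the shortest list, and the part of list length in these values was not tested. With absent sites counted at 0, the medians were 96.6, 98.3 and 98.6 for top 1% sites, against 0, 53.1 and 59.7 for the others. The difference was then 60.2 ± 31.7 points (SD, n = 3), and most of its spread came from replicate 1, at 96.6 points. The low end was long: 5% of the top 1% sites stood at or below percentile 68.2 in replicate 1, 78.4 in replicate 2 and 79.8 in replicate 3. Below percentile 50 were 73, 24 and 11 sites in the same order.

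**Figure D2:**
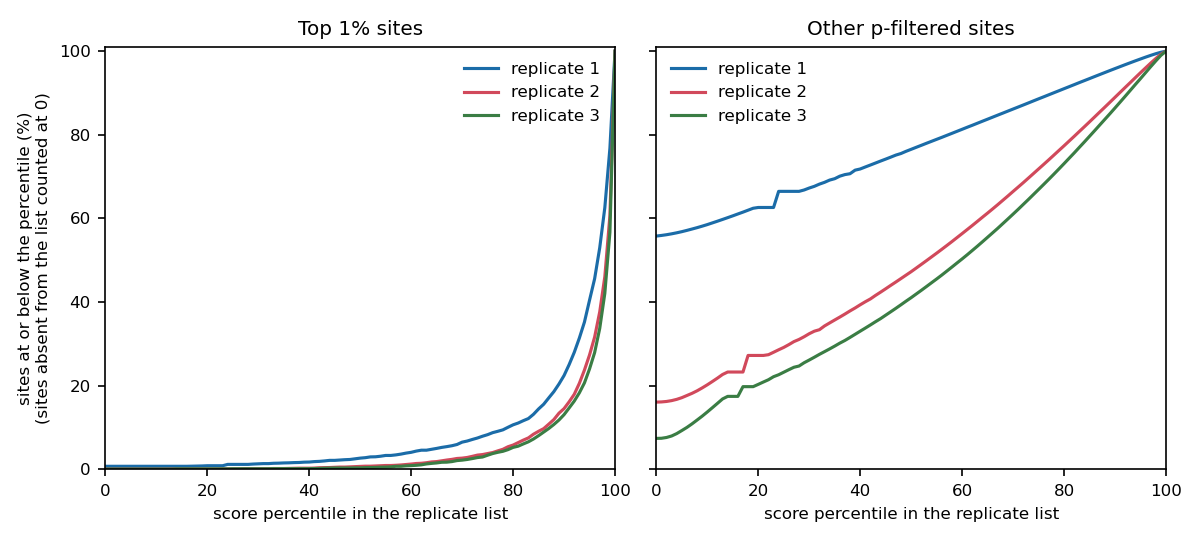
Cumulative share of sites, in percent, by the score percentile of the overlapping site in each replicate list, for the top 1% sites on the left and the other p-filtered sites on the right, with sites absent from a list counted at 0. On the left all 3 curves stay low until high percentiles, with medians of 96.7, 98.3 and 98.6, and replicate 1 lies above the other two.

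Fewer of the sites reached the top 1% of the replicates' own lists. The top 1% of the lists began at scores of 10.9, 8.89 and 7.41 in replicates 1, 2 and 3. It held 1862, 4051 and 5507 sites in the same order, since the lists differ in length. Replicate 1 had 867 of the 3739 sites in its top 1%, or 23.2%, against 0.488% of all p-filtered sites. Replicate 2 had 1470, or 39.3%, against 1.13%, and replicate 3 had 1620, or 43.3%, against 1.43%. The mean share was 35.3% ± 10.7 (SD, n = 3). Counted from the lists of replicates 1, 2 and 3, 46.6%, 35.9% and 29.2% of their own top 1% overlapped a top 1% p-filtered site. This is the opposite order, and the part of list length in these shares was not tested. Only 194 sites, or 5.19%, were in the top 1% of all 3 lists, against 0.0548% of all p-filtered sites, and 2551, or 68.2%, were in the top 1% of at least 1 list, against 2.49%. A further 1188 sites, or 31.8%, were in the top 1% of no replicate list although the combined score placed them there.

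By count, replicates 2 and 3 shared more of these sites than either shared with replicate 1, which had the fewest. Sites in the top 1% of both replicates 2 and 3 numbered 870, which is 59.2% of those of replicate 2 and 53.7% of those of replicate 3. Replicates 1 and 2 shared 387, or 44.6% and 26.3% of their sites, and replicates 1 and 3 shared 343, or 39.6% and 21.2%. The same pair counts were not made for all p-filtered sites, and the combined score chose the sites counted. The sets also differ in size, at 867, 1470 and 1620 sites in replicates 1, 2 and 3. Counts and shares therefore cannot be compared directly between pairs. Across the 3714 sites present in all lists, replicates 1 and 2 had a Pearson's r between scores of 0.13, replicates 2 and 3 had 0.40, and replicates 1 and 3 had -0.04. Across the 155325 other p-filtered sites in all lists the values for these pairs were 0.56, 0.69 and 0.52. These are descriptions across sites of the same libraries. Choosing sites by a score that combines the replicates narrows the range of scores and can itself lower r between replicates.

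Within the top 1%, sites with higher scores were more often in the top 1% of every replicate. This is a description only, since by its name the ranked list combines the same 3 replicates. Of the 748 highest-scoring sites, from 26.2 to 36.1, 16.8% were in the top 1% of all 3 replicate lists, and all 748 overlapped all 3 lists. Of the 748 lowest-scoring sites, from 23.02 to 23.51, the share was 0.535%. Median width was 70 nt in both sets. The share with another top 1% site within 10 kb was 36.6% in the highest-scoring set and 36.2% in the lowest-scoring set.

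The replicate lists cut out the same places at different widths. At top 1% sites the replicate 1 site had a median width of 65 nt, close to that of the p-filtered site, while the medians were 120 nt in replicate 2 and 105 nt in replicate 3. A median of 100% of the replicate 1 site's bases lay within the p-filtered site, against 64.7% for replicate 2 and 72.2% for replicate 3. The percentile was lowest at the widest replicate sites, those over 150 nt, in each replicate. In replicate 2 the median percentile was 99.48 at the 643 sites whose replicate site was up to 80 nt wide and 94.4 at the 1256 over 150 nt. In replicate 3 the values were 99.6 at 919 sites and 94.6 at 1022 sites, and in replicate 1 they were 96.6 at 2835 sites and 94.9 at 113 sites. At replicate sites of 85 to 150 nt the median was 96.8 in replicate 1, above that of the narrower sites, and 98.8 in both replicates 2 and 3. Whether width accounts for the lower percentiles was not tested.

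Top 1% sites scored higher than the combined sites they lie in. The scores of both combined lists could be compared, because 59905 p-filtered intervals had the same ends in both lists and 97.4% of these had scores equal within 0.001. Only 52 top 1% sites, or 1.39%, had the same ends as their combined site, against 16.2% of the others. Of the top 1% sites, 3688, or 98.6%, scored above their combined site. The median difference over all top 1% sites was 7.27, against 0.84 for the other p-filtered sites. The share scoring above was not computed for the others, and the p-filtered score itself chose the top 1% sites. The highest score of the p-filtered list, 36.1, also lay above the highest of the combined list, 30.4. In 99.498% of the 344635 combined sites that held a p-filtered interval, score times width summed over the p-filtered pieces did not exceed score times width of the combined site by more than 0.1%.

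The top 1% of the p-filtered list and that of the combined list overlapped in part. Of the 3739 sites, 1855 lay inside a combined site in the top 1% of the list without the p filter, or 49.6%, against 1.84% of all p-filtered sites. In the other direction, 1834 of the 6589 top combined sites held a top 1% p-filtered site, or 27.8%, and 40 held no p-filtered interval. Membership of both went with the width of the combined site. At combined sites of up to 70 nt, 95.7% of 235 top 1% sites were shared and the combined score had a median of 22.3. At 105 to 150 nt the share was 55.8% of 1042, and at 255 nt or more it was 11.7% of 753, with a median combined score of 13.4. Their own scores, by which they were chosen, had medians of 24.5 and 24.6 in the narrowest and widest of these classes. Whether width itself lowers the combined score was not tested. The mean of the replicates' median percentiles was 99.2 ± 0.858 in the narrowest class and 94.9 ± 1.09 in the widest (SD, n = 3).

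**Figure D3:**
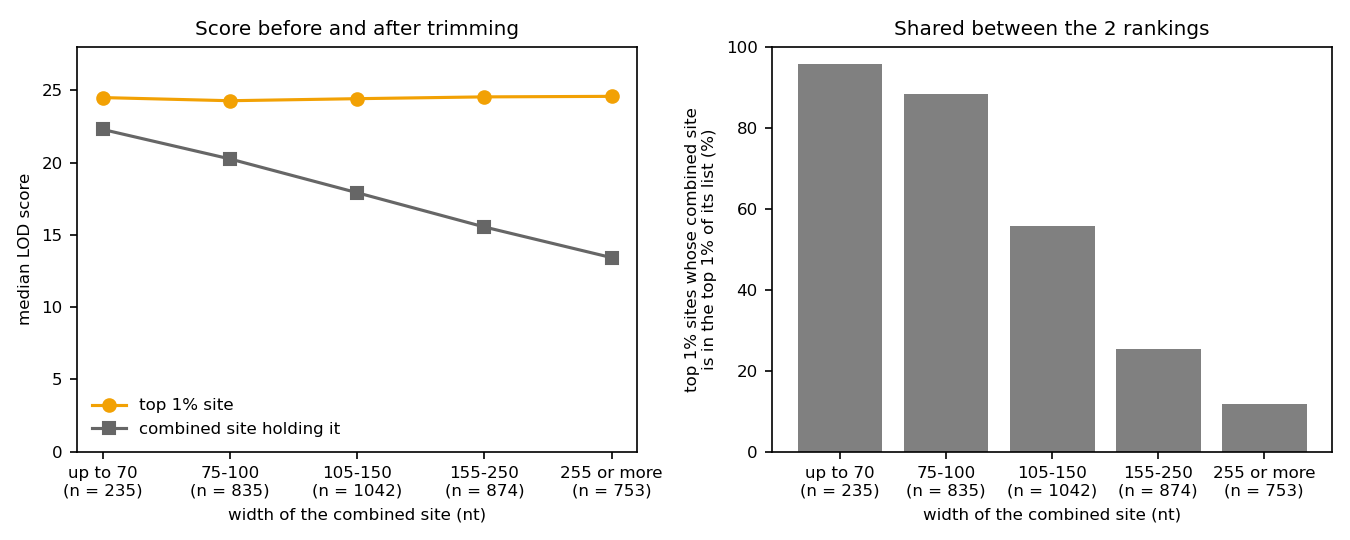
Top 1% sites grouped by the width in nt of the combined site that holds them, with the median LOD score of the top 1% site and of its combined site on the left and, on the right, the percentage whose combined site is in the top 1% of its own list. The top 1% score, by which the sites were chosen, stays near 24.5. The combined score falls to 13.4 and the shared percentage to 11.7% in the widest class.

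The highest score of all, 36.1, was at chr14:39648751-39648800 on the plus strand, 50 nt wide within a combined site of 95 nt. Its replicate scores of 13.4, 11.0 and 8.42 stood at percentiles 99.91, 99.97 and 99.85 of the lists of replicates 1, 2 and 3. The site chr1:21223896-21223950 on the minus strand followed with 35.4. It lay in a combined site of 290 nt with a score of 16.5, below the 99th percentile of the combined list, and kept 19.0% of its bases.

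The site chr2:109683536-109683560 on the minus strand scored 35.05 over 25 nt. Unlike the others in the top 10 by score, it had no p-filtered neighbour within 10 kb, and the nearest lay 60765 nt away. Its combined site was 30 nt wide and had the highest combined score, 30.4. Its replicate 1 score of 18.7 was close to that list's maximum of 19.0.

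The next scores were 34.9 at chr5:38940211-38940290 and 34.3 at chr1:155889611-155889680, both on the minus strand. The first stood at percentile 99.9 in every replicate list. The second stood at percentiles 99.998 and 99.997 in replicates 2 and 3 but at 86.6 in replicate 1, where its score was 7.49. On the plus strand, chr1:154201541-154201615 scored 33.7 and was in the top 1% of all 3 lists.

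Of the remaining sites of the top 10, 1 was in the top 1% of all 3 replicate lists. The site chr20:34324331-34324395 on the minus strand scored 33.4 and stood at percentile 96.5 in replicate 3. On the plus strand, chr12:38719936-38720020 scored 33.2 in a combined site of 330 nt and was in the top 1% of every replicate list. On the minus strand, chr17:1265096-1265140 scored 33.1, and its site in replicate 2 was 230 nt wide at percentile 92.0. The tenth, chr7:40171431-40171485 on the minus strand, scored 32.8, with percentiles of 95.2, 93.3 and 99.998 in replicates 1, 2 and 3. Of the 10, 5 were in the top 1% of all 3 replicate lists.

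The lowest mean replicate percentiles, with a list that lacks the site counted at 0, were at p-filtered sites of 25 to 35 nt. At chrX:73806286-73806320 on the minus strand the p-filtered score was 24.2 over 35 nt, taken from a combined site of 1010 nt that scored 7.89. The replicate percentiles there were 28.5, 26.7 and 78.7. The sites chr1:95661696-95661720 and chr10:70459446-70459480, both on the plus strand, scored 23.1 and 23.7 and had no site in replicate 1. In replicates 2 and 3 they stood at percentiles 65.3 and 75.1, and at 45.1 and 95.5.

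The widest top 1% sites were a pair of 305 nt. The first, chr2:179380306-179380610 on the plus strand, scored 26.0 within a combined site of 1195 nt and was in the top 1% of no replicate list. The second, chr3:196473761-196474065 on the plus strand, scored 23.5, kept 91.0% of a combined site of 335 nt and stood at percentiles 94.3, 99.51 and 99.8. The third, chr3:108269606-108269900 on the minus strand, was 295 nt wide and scored 24.4.

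Sites just inside and just outside the threshold both had mixed replicate values. Just inside, chrX:30747021-30747095 on the plus strand scored 23.0219, and its percentiles were 99.99, 99.97 and 94.0. The site chr1:180249466-180249530 on the minus strand also scored 23.0219, and chr2:42660071-42660150 on the minus strand scored 23.0222. Just outside, chr12:58184366-58184480 on the plus strand scored 23.0218, with percentiles of 91.6, 97.8 and 98.9. It was followed by chr2:201439326-201439395 at 23.0209 and chr10:298976-299060 at 23.0208, both on the plus strand. The last stood at percentile 59.0 in replicate 1 and 99.9 in replicate 3.

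Top 1% sites were far apart from each other but lay in crowded neighbourhoods, like sites at percentiles 98 to 99. The median gap between neighbouring top 1% sites on a strand was 472110 nt, over 3691 gaps. The lower quartile of the gaps was 21215 nt, and 41 gaps were of 100 nt or less. Sites of any score were much closer: the nearest p-filtered site was a median of 100 nt away from a top 1% site and 255 nt away from the others. Within 10 kb on the same strand, top 1% sites had a median of 21 p-filtered neighbours and the others 16. Sites at percentiles 98 to 99 also had a median of 21, and the median gap between sites of that band was 486340 nt. Only 64 top 1% sites, or 1.71%, had none within 10 kb, against 2.75% of the others.

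Some of the top 1% sites formed clusters of several within 10 kb. Of the 3739 sites, 1313 had another within 10 kb on the same strand, or 35.1% (95% exact binomial interval 33.6 to 36.7), and made up 577 clusters. Pairs made up 454 of these, 96 had 3 sites, 21 had 4, 4 had 5, and the largest had 6 and 7. The sites were mostly in separate combined sites, since the 3739 lay in 3701 combined sites, 36 of which held 2 and 1 of which held 3. Clustered sites were a median of 75 nt wide and those alone 70 nt, and the replicate percentiles differed by less than 1 point, at 96.4, 98.1 and 98.3 for clustered sites against 96.8, 98.4 and 98.8 for those alone. Clustered sites had a median of 29 p-filtered neighbours within 10 kb and those alone 17.

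Sites with low scores were also clustered with each other. Bands of 1% of the list have nearly the same number of sites, so the share with another site of the same band within 10 kb can be set side by side. It was 35.1% in the top band, 30.9% at percentiles 98 to 99, 24.9% at 90 to 91, 14.6% at 50 to 51 and 11.4% at 11 to 12, the lowest of the 100 bands. In the bottom band it was 33.2%. When each replicate's own top 1% was used, the shares were 16.2%, 30.8% and 32.8%, with 1862, 4051 and 5507 sites, a mean of 26.6% ± 9.09 (SD, n = 3). The lists differ in length, and its part in these shares was not tested.

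The cluster with the most top 1% sites was chrX:54589411-54602765 on the plus strand, with 7 sites over 13355 nt. Their scores ran from 23.5 to 26.5 and their widths from 60 to 160 nt, and they were 7 of the 52 p-filtered sites in the span, or 13.5%. All 7 were found in every replicate. Their median percentiles were 94.1, 95.2 and 96.1, and the lowest was 76.7, in replicate 2.

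The next cluster, chr5:138638711-138663025 on the plus strand, held 6 sites over 24315 nt among 74 p-filtered sites. Replicate 2 placed each of them at percentile 98.7 or above, while replicate 1 went down to 88.9. On the minus strand of the same chromosome, chr5:70325421-70342205 held 5 sites of 28, among them 1 of 225 nt that scored 23.7. In replicate 1 that site scored 15.2, at percentile 99.99, while another of the 5 stood at 72.4.

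Of the 4 clusters with 5 sites, the next was also on chromosome X. At chrX:73184816-73201800 on the plus strand the 5 were among 65 p-filtered sites over 16985 nt, and the highest score was 29.2. The percentiles of these 5 went down to 42.4 in replicate 1 and 78.5 in replicate 3. The last of the 5 named clusters was chr2:211014281-211018120 on the minus strand, where 5 of the 11 p-filtered sites in 3840 nt, or 45.5%, were in the top 1%. Their median percentiles were 93.3, 95.6 and 96.6.

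**Figure D4:**
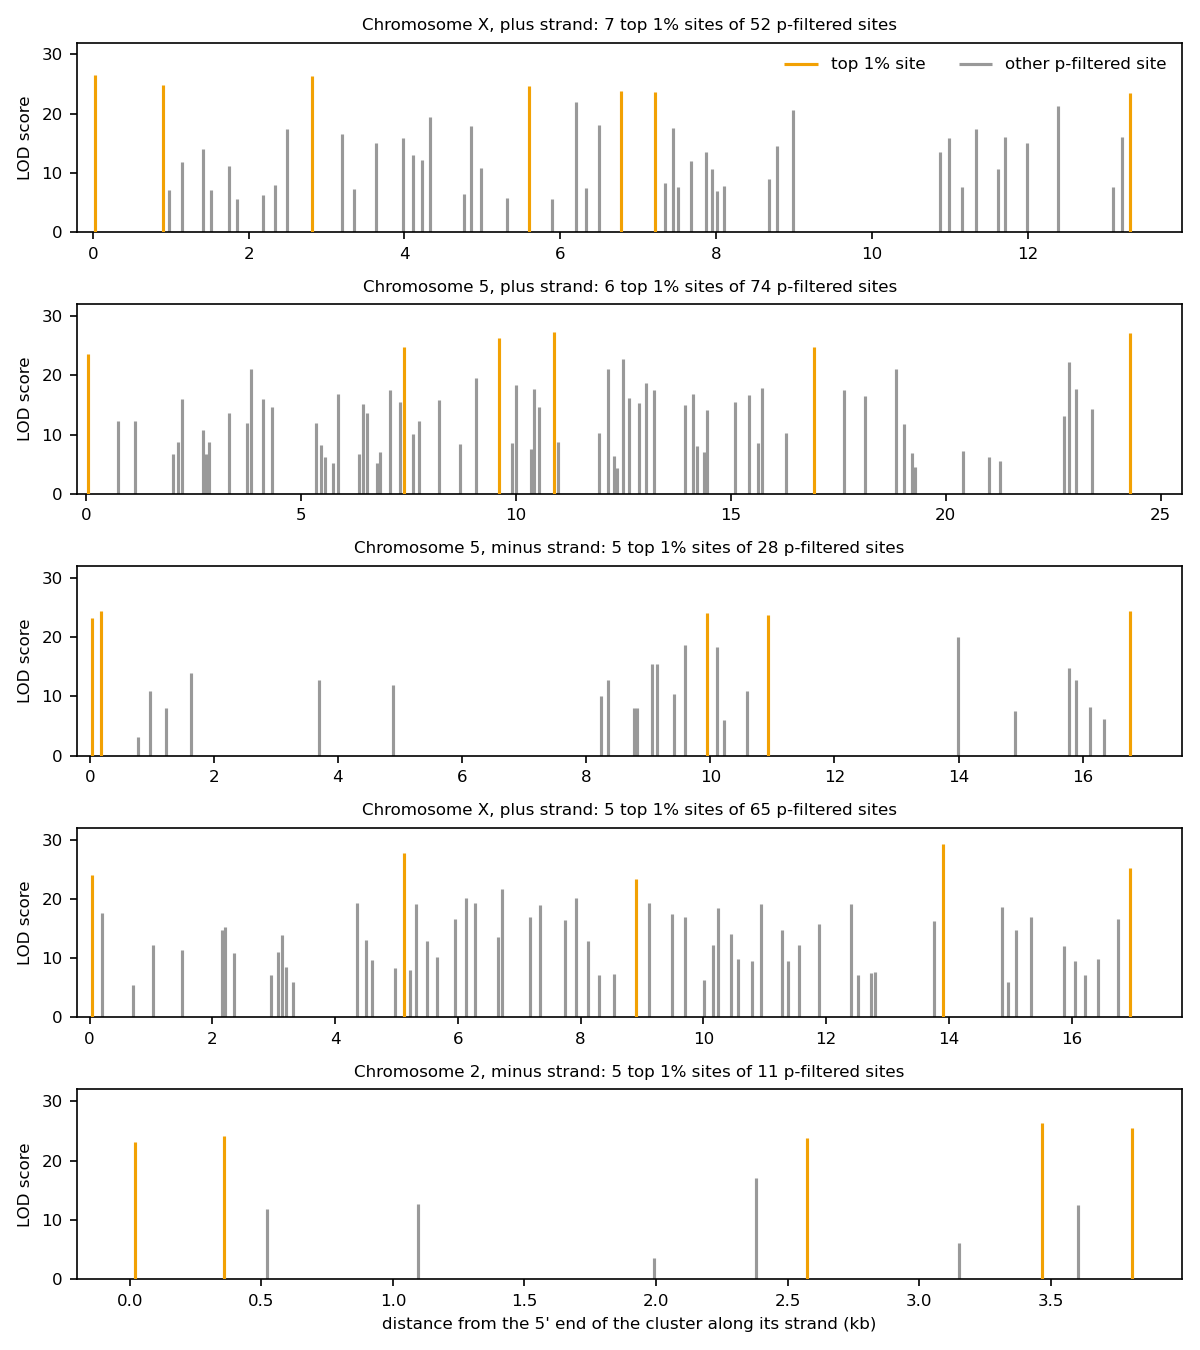
LOD score of each p-filtered site in the 5 clusters with the most top 1% sites, against distance in kb from the cluster's 5′ end along its strand, with top 1% sites and other p-filtered sites in different colours. The top 1% sites, all scoring between 23.2 and 29.2, stand among lower-scoring sites, with stretches of several kb between top 1% sites in the 4 longer clusters.

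The sites were spread over the chromosomes much as all p-filtered sites were. Of chromosomes 1 to 22 and X, 14 held a larger share of the top 1% sites than of all p-filtered sites and 9 a smaller share, with ratios from 0.737 to 1.19. Chromosome 16 had the highest ratio, with 130 sites, and chromosome 9 the lowest, with 103. The 95% exact binomial interval of the share excluded the share of all p-filtered sites for 4 chromosomes. These were chromosome 9, with 2.75% of the top 1% sites against 3.74%, chromosome 2, with 7.97% against 9.25%, chromosome 3, with 4.73% against 5.48%, and chromosome 12, with 6.12% against 5.37%. The intervals treat sites as independent, although 35.1% were clustered, and they were not adjusted for the 23 chromosomes compared.

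The replicates' own top 1% gave the same side of 1 for some chromosomes. Chromosomes 12, 16, 17 and 19 were above 1 in the p-filtered list and in all 3 replicate lists. Chromosomes 2, 3, 9, 13, 14 and 20 were below 1 in all 4 lists. Across the replicates the ratio was 1.37 ± 0.210 for chromosome 19, 1.24 ± 0.154 for chromosome 17 and 1.17 ± 0.146 for chromosome 16 (SD, n = 3). It was 0.861 ± 0.0787 for chromosome 9 and 0.937 ± 0.0356 for chromosome 2 (SD, n = 3). No top 1% site lay on the mitochondrial genome, which had 18 p-filtered sites. The plus strand carried 51.5% of the top 1% sites (95% exact binomial interval 49.8 to 53.1), against 50.9% of the others.

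**Figure D5:**
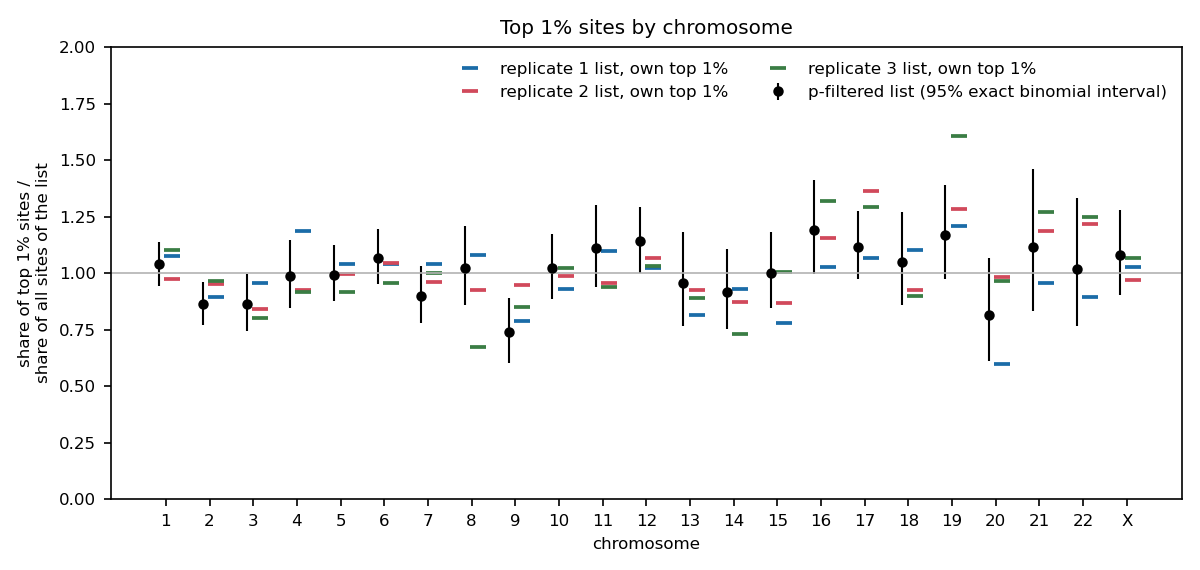
Share of top 1% sites on each chromosome divided by the share of all sites of the same list, as black points with 95% exact binomial intervals for the p-filtered list and as coloured dashes for each replicate's own top 1%. Points lie between 0.737 for chromosome 9 and 1.19 for chromosome 16, and the replicate dashes are widely spread for several chromosomes.

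A few top 1% sites shared bases with a p-filtered site on the opposite strand. They numbered 28, or 0.749% (95% exact binomial interval 0.498 to 1.08), against 0.231% of all p-filtered sites. Top 1% sites were also wider, with a median of 70 nt against 45 nt for the others, and no share at matched width was computed. By their coordinates, 2 top 1% sites were placed on chromosome Y. Whether their reads came from other places in the genome was not tested. For chrY:59274831-59274920 on the plus strand, which scored 24.8, a p-filtered site of 100 nt with a score of 21.9 lay at chrX:155171821-155171920, at 1 of the 4 most common offsets between Y and X sites. For chrY:21152991-21153060 on the minus strand, which scored 25.3, no X site was found at these offsets.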

How the data were processed

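Site lists of 3 HuR immunoprecipitations and of these replicates combined were analysed, grouped by the samples' titles. The submitters' processing notes name TopHat2 2.0.8, cutadapt 1.0 and the build hg19 (GRCh37). Each deposited interval carries the authors' LOD score. Site calling and scoring were not given in the sources used here. The list names state a LOD above 0 and, for 1 combined list, a p limit of 0.05.

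The top 1% was taken at the 99th percentile of the p-filtered score, with pandas 2.3.3, numpy 2.4.6 and scipy 1.17.1 in Python 3.11.15. Sites matched on the same strand at 1 nt of overlap or more, and the partner sharing the most bases was used, ties going to the higher score. Percentiles are mean ranks within a list. Clusters join sites at most 10 kb apart. Confidence intervals are 95% Clopper-Pearson intervals. The code was tested on simulated data.

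The members and descriptions were chosen with earlier results of these data known. Named sites are the 10 highest scores, the 5 clusters with the most sites (ties by bases covered), and 3 each of the widest, the lowest in mean replicate percentile (0 where absent), and those on either side of the threshold. Planned results on sequence, transcript regions and gene lists were not run, since the annotation supplied has another build. Alternatives were other score thresholds, the list without the p filter, other overlap, partner and cluster rules, and leaving out each replicate.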

Additional observations from a re-analysis of the deposited data

How the results depend on the processing

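Alternatives gave 42 values for 8 results, of which 29 stayed within a bound and 13 moved past it. The bound was the spread between replicates, or a 95% binomial interval for counting error where replicates gave none. The bound of the median gap, an SD of 615123 nt, is too wide to be informative. With the top 2% in place of the top 1%, 50.7% of the sites had another within 10 kb, 98.6% were in all 3 replicate lists, a median of 58.8% of the combined site was kept, the median gap was 98175 nt and chromosome 19 had the highest ratio, 1.21. With the top 0.5% the clustered share was 19.3%, the median gap 1391465 nt and the kept share 54.5%. The number of sites changes with the threshold, and with it the clustered share and the gap. In the list without the p filter, the top 1% had a median width of 85 nt, 98.98% were in all 3 replicate lists, the median gap was 170025 nt, and the highest chromosome ratio was 1.49, again on chromosome 19 in place of chromosome 16. The clustered share was 11.9% at 1 kb and 56.0% at 100 kb. With at least 50% of each interval shared, 65.7% of the sites were in all 3 lists. Beyond the change in the number of sites, the cause was not tested. Without each replicate in turn, the share in all remaining lists ranged from 99.3% to 100%, the mean of the median percentiles from 97.5 to 98.5 and the share in a replicate's top 1% from 31.3% to 41.3%. The value of 100% came without replicate 1. Counting combined sites in place of their members, chosen after seeing the data, gave a clustered share of 33.8%. Unknown depth limits statements on absent sites. No paired analysis was possible because values of the negative controls were not analysed here.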

Other observations

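The surroundings of top 1% sites were set beside those of sites at other scores, a comparison chosen after seeing the data. At 300 to 1000 nt, top 1% sites had 2.93 p-filtered neighbours per site with a median score of 11.5. Sites at percentiles 98 to 99 had 2.80 neighbours with a median of 11.4, and sites at percentiles 50 to 51 had 1.64 with a median of 10.4. The bottom 1% of p-filtered sites, with scores of 1.76 to 3.93, had 2.80 neighbours per site at this distance with a median of 11.1. Among the neighbours within 100 nt, 3.36% were themselves in the top 1% at top 1% sites and 2.92% at bottom 1% sites, against 0.993% at percentiles 50 to 51. At 30 to 100 kb the shares were 0.925%, 0.960% and 0.928% in the same order. By neighbour number and median score at 300 to 1000 nt, the bottom 1% lay in surroundings closer to those of the top 1% than to those of the middle of the list.

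The bottom 1% differed from the top 1% in the replicates. Its median percentiles were 2.60, 4.36 and 3.75 in replicates 1, 2 and 3, and 22.1% of its sites were in all 3 lists. Its sites were a median of 20 nt wide and kept 30.8% of combined sites of 70 nt, while top 1% sites kept 56.3% of combined sites of 135 nt.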
